A study of Danio rerio with 12 samples.

Results

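The genes described here separated gill from intestine libraries in both reporter colors under the rule below. In some of them the lower color stood near 1% of the higher one, a level treated further down. A gene was taken when its levels in all 6 gill libraries lay above, or all below, its levels in the 6 intestine libraries, and when its mean level was at least 20 CPM (counts scaled to the library total) in both colors of the higher tissue. Of the 32520 genes in the count table, 72 met this rule, 22 of them higher in gill and 50 higher in intestine. After a filter on low counts 10666 genes were tested, among them 71 of the 72 (21 higher in gill, 50 higher in intestine). The one left out was TRAF4 (ENSDARG00000003963), an adaptor of TNF receptor family signaling. TRAF4 had 153, 0.141 and 0.933 CPM in gill GFP and 0.765, 114.6 and 0.276 CPM in gill DsRedx libraries, against 0 CPM in all 6 intestine libraries, so that 1 library of each color held nearly all of it.

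Every library came from adult zebrafish carrying both parts of a lineage reporter, sox17:CreERT2 and a cassette of mpeg1:loxP-DsRedx-loxP-GFP. In these fish the promoter of sox17, a gene of the endoderm, drives a tamoxifen-dependent Cre recombinase, and the promoter of mpeg1, a gene of macrophages, drives a cassette in which Cre replaces DsRedx by GFP. The sources used here give no tamoxifen dose or timing. The 4 groups, with 3 libraries each, were GFP cells of the gill (metaphocytes in the series description), DsRedx cells of the gill (macrophages), GFP cells of the intestine (metaphocytes) and DsRedx cells of the intestine (macrophages). From 30 to 50 sorted cells were lysed per sample, carried through the SMART-seq2 protocol, which copies whole transcripts, and sequenced as pairs of 150-base reads. The comparison addressed here is how gill differs from intestine when the difference within GFP cells and the difference within DsRedx cells are averaged.

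Mucosal macrophages take on properties of the tissue they live in, and gill and gut are both barriers that meet water, food and microbes. Metaphocytes are cells of zebrafish barrier tissues that look like macrophages but derive from ectoderm or endoderm, and they take up soluble antigen. The genes include a chemokine, MHC class II molecules, signaling and cytoskeletal regulators, genes of absorption and metabolism, a chaperone of the endoplasmic reticulum, and genes that fall in none of these classes.

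Libraries held from 5895669 to 12365233 counts, with 9506 to 11881 genes detected in gill and 11312 to 13278 in intestine libraries. Pearson correlations of log2 CPM between libraries of a group ran from 0.562 to 0.771, and the common biological coefficient of variation was 1.42. Leukocyte and macrophage markers (15 genes) summed to 9908 to 18670 CPM in gill GFP and 30460.0 to 39980.0 CPM in gill DsRedx libraries, against 3973 to 4802 CPM in intestine GFP and 20540.0 to 25750.0 CPM in intestine DsRedx libraries. The invariant chain gene cd74a carried most of this sum in gill. Without it, the other 14 genes summed to 2423 to 3718 CPM in gill GFP and 3939 to 8199 CPM in gill DsRedx libraries, against 1815 to 2557 CPM in intestine GFP and 7457 to 9160 CPM in intestine DsRedx libraries, so that the tissues overlapped in each color. The macrophage receptor gene csf1ra had 0 CPM in all 3 gill GFP and 0, 11.48 and 1.52 CPM in gill DsRedx libraries, against 1.04, 0.861 and 0.66 CPM in intestine GFP and 98.0, 258 and 197 CPM in intestine DsRedx libraries, and was called lower in gill by edgeR (log2 difference -5.63, SE 1.38, adjusted p = 0.0212). Other genes of this list varied: edgeR also called c1qc lower in gill (adjusted p = 0.0392) but cd74a higher. In DsRedx cells SPI1 averaged 545 CPM in gill against 292 CPM in intestine, and ptprc 464 against 497 CPM. Epithelial markers (8 genes) summed to 5577 to 9730 CPM in gill GFP and 487 to 2287 CPM in gill DsRedx libraries, against 5741 to 7443 CPM in intestine GFP and 465 to 1046 CPM in intestine DsRedx libraries. In DsRedx cells krt8 carried most of this sum, with means of 1305 CPM in gill and 704 CPM in intestine. In gill krt8 was lower in GFP cells (593 CPM), whereas every other gene of the list was higher there, as epcam at 1244 against 25.4 CPM. Neutrophil markers (2 genes) summed to 59.4 to 180.1 CPM in gill GFP and at most 1.04 CPM in gill DsRedx libraries, against 9.95 to 64.0 CPM in intestine GFP and at most 0.551 CPM in intestine DsRedx libraries. All of this sum was npsn, and the other gene, lyz, was at 0 CPM in every group. T cell markers (4 genes) reached 262 CPM in gill DsRedx 3, against 230.3 CPM in intestine DsRedx 3. Endothelial and stromal markers (5 genes) reached 145 CPM in gill DsRedx 3, gill ionocyte markers (8 genes) 40.9 CPM in gill GFP 3, and B cell markers (4 genes) 80.3 CPM in intestine DsRedx 1. The endothelial and stromal level of gill DsRedx was almost all COL1A2 (mean 48.4 CPM), with kdrl, cdh5 and col1a1a at 0 CPM in gill. Markers of pancreas (7 genes) and of erythrocytes (4 genes) were at 0 in every library. The part of other cell types in the levels below was not tested. The sources used here do not say whether the 3 libraries of a group came from different fish, nor in which batches gill and intestine were sorted. P-values therefore measure the spread between these libraries, and preparation and tissue cannot be told apart. Fewer cells of a type and less RNA per cell cannot be told apart either.

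A low level shared by libraries of the same tissue bears on these genes. Where a gene exceeded 2000 CPM in one color and stayed under 3% of that in the other, the level in the low color was set against the mean of the high one. In gill, 1 gene high in GFP cells was read in DsRedx libraries at a median of 0.914% of its GFP mean, and 3 genes high in DsRedx cells were read in GFP libraries at 0.355 to 2.01%, with a median of 0.568%. In intestine, 8 genes high in GFP cells were read in DsRedx libraries at 0.966 to 1.97% of the GFP mean, with a median of 1.098%, and 3 genes high in DsRedx cells were read in GFP libraries at 0.435 to 2.38%, with a median of 0.815%. At 1.098%, a gene of 2000 CPM in one color reads about 20 CPM in the other. Among the members, the lower color stood at under 5% of the higher one in 2 of 21 gill genes and 6 of 50 intestine genes. A library at or under 1% of its tissue's summed level occurred in 7 of 21 gill genes and 17 of 50 intestine genes. The remaining 47 of 71 genes were above 1% of the sum in every library of the higher tissue.

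**Figure D1:**
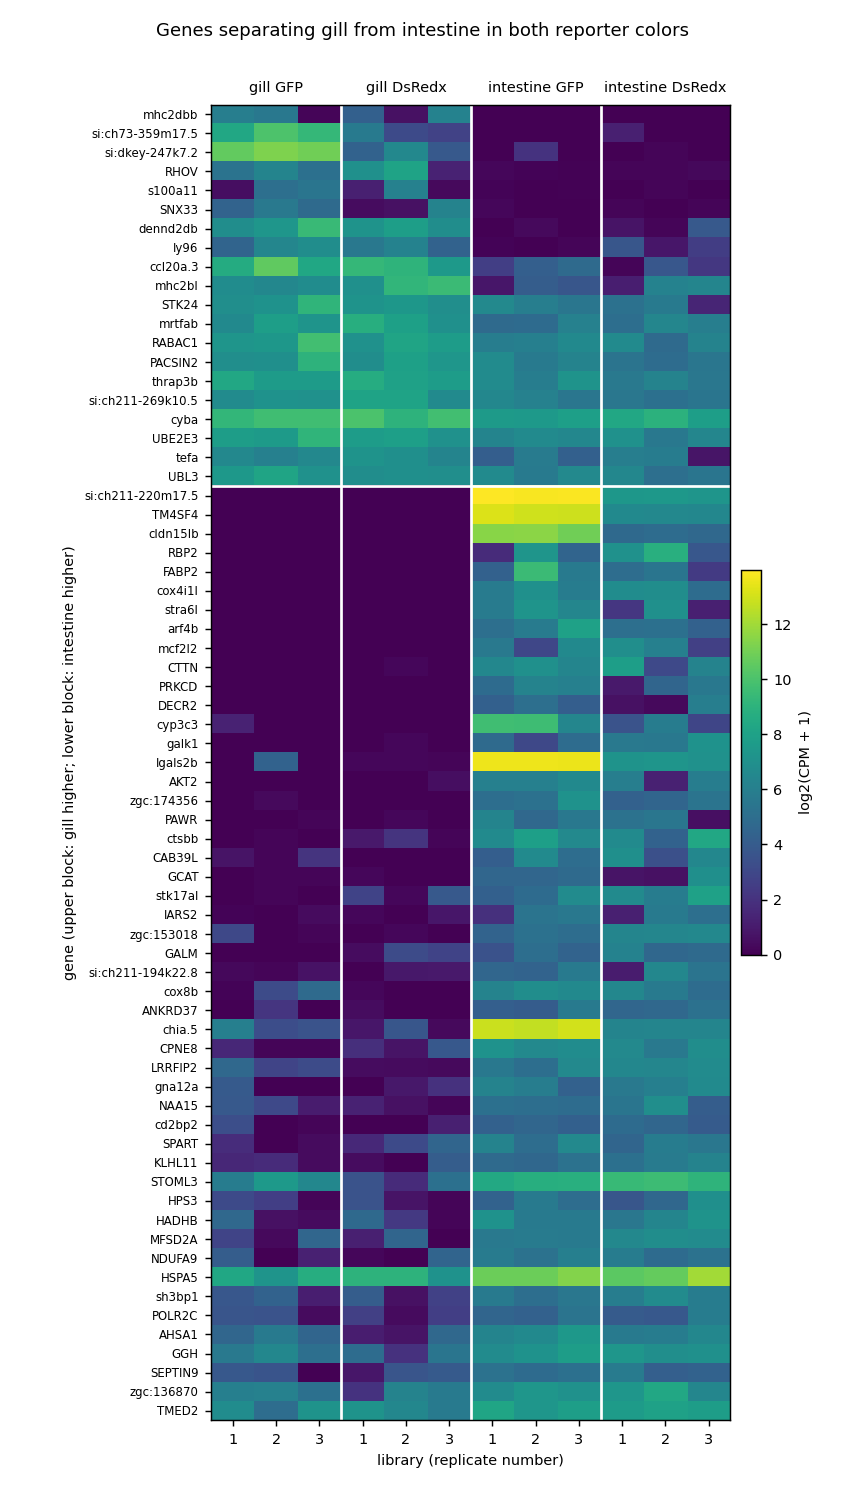
Level of 69 of the 71 tested genes in each of the 12 libraries, as log2(CPM + 1), with gill libraries left and intestine libraries right, GFP before DsRedx in each tissue. The upper block holds 20 genes higher in gill and the lower block 49 higher in intestine, each ordered by the size of the mean log2 difference. Blocks of near-even color across both reporter colors mark genes at like levels in the 2 cell types, as in HSPA5 or cyba. The GFP columns of TM4SF4, lgals2b and chia.5 stand far above their DsRedx columns.

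The choice of these genes used the tissue contrast itself, so their difference between tissues is a description. For 14 of the 21 gill genes and 35 of the 50 intestine genes the mean difference also passed edgeR's quasi-likelihood test at a Benjamini-Hochberg adjusted p under 0.05 ("called" below). Of all 10666 genes, 2.51% were called higher in gill and 6.56% higher in intestine, together 9.08% or 968 genes. Non-overlapping libraries occurred in 0.731% of all tested genes with gill higher and 3.03% with intestine higher. The median log2 difference, gill over intestine, was 3.28 for the gill genes and -6.83 for the intestine genes, against -0.25 over all genes. With genes at 0 in one tissue set to their bound, the medians of the members were again 3.28 and -6.83. The 968 calls fell to 342 without intestine GFP 3, to 427 and 466 without intestine GFP 2 and 1, to 430, 456 and 476 without gill GFP 3, 2 and 1, and to 535 and 639 without gill DsRedx 2 and 1. With a covariate for the genes detected per library, which itself differed between the tissues, 7 genes were called, 3 of them members (si:ch211-220m17.5, TM4SF4 and cldn15lb).

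Immune genes formed the first group of gill genes. The gene ccl20a.3 encodes a chemokine of the CCL20 family, whose mammalian member draws lymphocytes and dendritic cells to mucosal surfaces. Its levels were 388, 1475 and 318 CPM in gill GFP and 618, 540.0 and 182 CPM in gill DsRedx libraries, against 4.95, 17.9 and 27.12 CPM in intestine GFP and 0.138, 12.9 and 3.83 CPM in intestine DsRedx libraries. Every gill library lay above every intestine library, and the tissue means were 52.7-fold apart (log2 difference 5.88, SE 0.87). The colors overlapped within gill. ly96 encodes MD-2, the partner of the lipopolysaccharide receptor TLR4 in mammals. Its levels were 21.9, 85.0 and 114 CPM in gill GFP and 48.0, 73.0 and 20.15 CPM in gill DsRedx libraries, against 0.0868, 0 and 0.147 CPM in intestine GFP and 12.1, 0.796 and 4.7 CPM in intestine DsRedx libraries. All gill libraries exceeded all intestine libraries, but intestine DsRedx cells carried some ly96 and intestine GFP cells nearly none. The difference between the tissue effects in GFP and DsRedx cells was 6.60, SE 2.33, adjusted p = 0.216 for ly96.

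MHC class II molecules present peptides on antigen-presenting cells, and 2 genes with such names were among the gill genes. mhc2bl had 108, 86.4 and 108 CPM in gill GFP and 127, 571 and 722 CPM in gill DsRedx libraries, against 0.781, 16.4 and 12.5 CPM in intestine GFP and 1.24, 72.3 and 79.7 CPM in intestine DsRedx libraries. It was lowest in library 1 of each intestine group, and in gill the DsRedx libraries lay above the GFP libraries without overlap. mhc2dbb had 61.0, 47.0 and 0.155 CPM in gill GFP and 18.4, 0.522 and 72.9 CPM in gill DsRedx libraries, against 0 CPM in all 6 intestine libraries. Its level was uneven between libraries of a group, with 1 gill GFP and 1 gill DsRedx library under 1 CPM, and it was at least 649.5-fold higher in gill by a floor of 3 counts over the intestine libraries. Floors and counting intervals cover counting error only, since the reads carried no molecular barcodes. Class II genes are near-identical copies whose reads the counting could split, so the levels of single copies are uncertain. cyba encodes p22phox, the membrane anchor of the phagocyte NADPH oxidase. It had 613, 816 and 828 CPM in gill GFP and 1018, 512 and 852 CPM in gill DsRedx libraries, against 196, 177 and 229.9 CPM in intestine GFP and 329, 505 and 228 CPM in intestine DsRedx libraries. Its highest intestine library lay just below its lowest gill library, and the tissue means were 2.79-fold apart (log2 difference 1.53, SE 0.41). Under 4 other scalings cyba met the rule 2 times.

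Membrane and cytoskeleton genes made up the second gill group. dennd2db belongs to the DENN domain family of Rab exchange factors, which switch on vesicle traffic. It had 112, 161 and 702 CPM in gill GFP and 143, 228 and 113 CPM in gill DsRedx libraries, against 0, 0.287 and 0 CPM in intestine GFP and 0.689, 0.133 and 13.8 CPM in intestine DsRedx libraries. Every gill library held over 100 CPM and only intestine DsRedx 3 held over 1 CPM in intestine, and the means were 97.6-fold apart. The tissue effects in GFP and DsRedx cells differed by 6.55, SE 2.03, adjusted p = 0.178, on the log2 scale. RABAC1, an acceptor of prenylated Rab proteins at the Golgi, had 152, 165 and 854 CPM in gill GFP and 133, 287 and 208 CPM in gill DsRedx libraries, against 59.5, 63.4 and 99.4 CPM in intestine GFP and 100.2, 27.9 and 74.0 CPM in intestine DsRedx libraries. Gill GFP 3 was the highest library for dennd2db, RABAC1, STK24 and PACSIN2 alike. PACSIN2, which bends membranes during endocytosis, had 253 ± 229 CPM in gill GFP and 173 ± 64.4 CPM in gill DsRedx, against 78.6 ± 26.9 CPM in intestine GFP and 38.1 ± 7.26 CPM in intestine DsRedx libraries (SD, n = 3 each).

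Small GTPases and sorting nexins were represented by genes that intestine libraries almost lacked. RHOV, an atypical small GTPase, had 38.7, 77.0 and 34.99 CPM in gill GFP and 126, 277 and 1.52 CPM in gill DsRedx libraries, with at most 0.247 CPM in intestine. SNX33, a sorting nexin of endocytosis, had 21.0, 48.6 and 27.06 CPM in gill GFP and 0.382, 0.522 and 74.4 CPM in gill DsRedx libraries, with at most 0.174 CPM in intestine. In DsRedx cells its level thus came from 1 library. The calcium-binding gene s100a11 had 0.425, 32.9 and 42.5 CPM in gill GFP and 1.34, 68.0 and 0.276 CPM in gill DsRedx libraries, and was 431-fold higher in gill (95% counting interval 147 to 2094) on 3 counts in intestine. Its level likewise came from few libraries, 3 of 6 being near or under 1 CPM.

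Signaling, ubiquitin and transcription regulators were measured in both tissues, with means 2.32- to 4.26-fold apart. Of those in this paragraph, only thrap3b was called for the mean tissue difference. The MST-family kinase gene STK24 (ENSDARG00000023878), 1 of several genes of that symbol, had 269 ± 244 CPM in gill GFP and 142 ± 22.0 CPM in gill DsRedx, against 66.7 ± 26.7 CPM in intestine GFP and 29.8 ± 25.7 CPM in intestine DsRedx libraries (SD, n = 3 each). mrtfab encodes a coactivator of serum response factor, which couples actin dynamics to transcription. Its levels were 95.8, 226 and 146 CPM in gill GFP and 425, 240.2 and 127 CPM in gill DsRedx libraries, against 27.2, 29.0 and 70.08 CPM in intestine GFP and 32.5, 84.4 and 61.6 CPM in intestine DsRedx libraries, a 4.13-fold difference of means. thrap3b, a gene of mRNA processing, had 330.0, 201 and 198 CPM in gill GFP and 401, 252 and 209.9 CPM in gill DsRedx libraries, against 107, 58.5 and 141 CPM in intestine GFP and 48.6, 73.8 and 46.0 CPM in intestine DsRedx libraries. The colors overlapped in gill, and no intestine library of thrap3b reached 150 CPM. UBE2E3, a ubiquitin-conjugating enzyme, spanned 132 to 558 CPM over the gill libraries, against 46.7 to 132 CPM over the intestine libraries. UBL3, a ubiquitin-like membrane-anchored protein, spanned 115 to 281 CPM over the gill libraries, against 32.9 to 99.9 CPM over the intestine libraries. tefa, a PAR bZIP transcription factor that is an output of the circadian clock, had 89.9, 67.4 and 90.8 CPM in gill GFP and 145, 122 and 76.6 CPM in gill DsRedx libraries, against 17.0, 55.3 and 18.6 CPM in intestine GFP and 61.7, 57.2 and 0.741 CPM in intestine DsRedx libraries. The sources used here give no time of day, and none of 32 tested clock genes was called in either direction by edgeR.

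Of the 3 clone-named gill genes, 2 were almost GFP genes. si:dkey-247k7.2 had 1545, 2444 and 1922 CPM in gill GFP and 20.3, 88.9 and 13.7 CPM in gill DsRedx libraries, so that its DsRedx mean was 2.08% of its GFP mean. si:ch73-359m17.5 had 335, 1068 and 635 CPM in gill GFP and 53.2, 7.65 and 5.8 CPM in gill DsRedx libraries, a ratio of 3.27%. Their intestine libraries held at most 3.06 and 1.38 CPM. Neither gene met the rule with 1% or 2% of the other color, or 0.5% of the other 5 libraries of the tissue, taken off. si:ch211-269k10.5 spanned 100.1 to 274 CPM over the gill libraries, against 34.6 to 86.5 CPM over the intestine libraries. Per unit of transcript length, si:dkey-247k7.2 was the highest gill gene in gill GFP cells, at 4071 TPM (a scale that divides by transcript length), followed by ccl20a.3 at 2321 TPM. In gill DsRedx cells cyba was highest, at 1153 TPM, followed by ccl20a.3 at 1034 TPM.

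**Figure D2:**
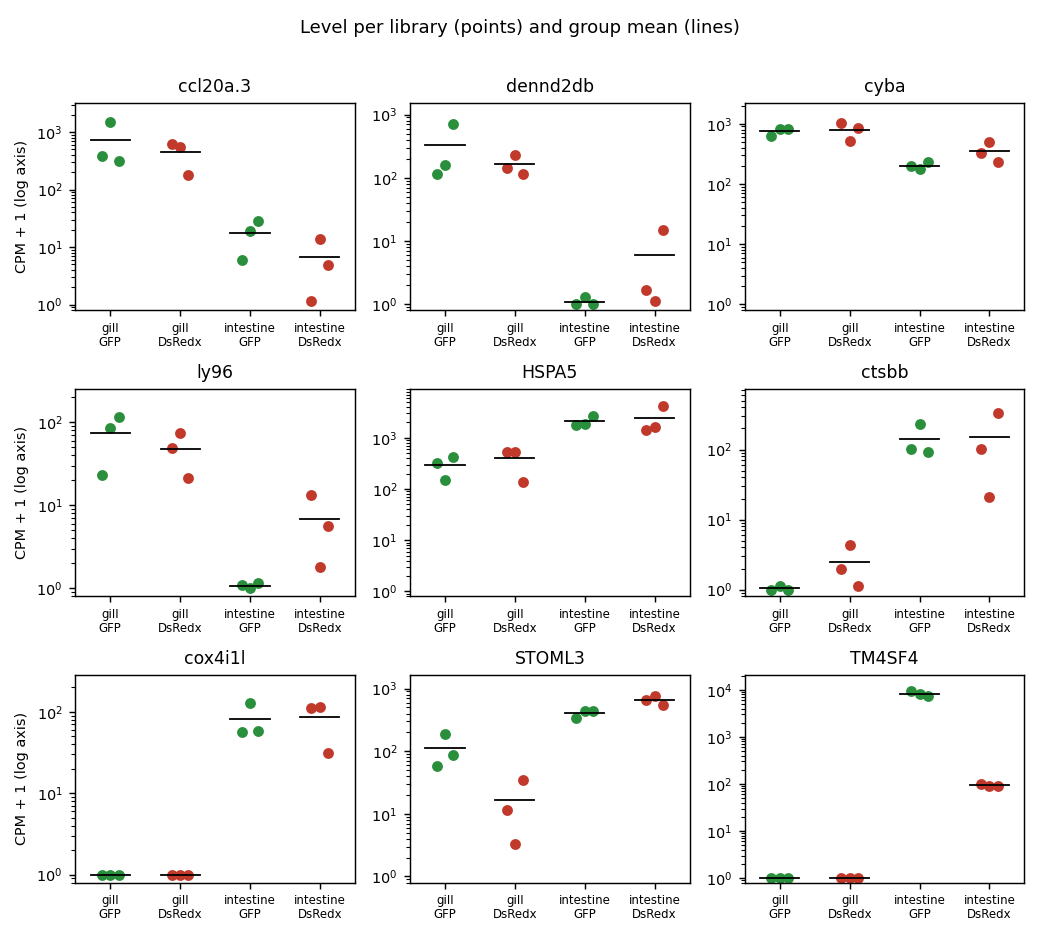
Level in each library (points, CPM + 1 on a log axis) and group mean (lines) for 9 genes, GFP in green and DsRedx in red, gill groups left of intestine groups. In ccl20a.3, dennd2db, cyba and ly96 the gill points lie above all intestine points, and in HSPA5, ctsbb, cox4i1l and STOML3 the intestine points lie above all gill points in both colors. TM4SF4 reads 87.8 to 98.4 CPM in intestine DsRedx libraries, near 1% of its intestine GFP level.

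Protein folding and secretory genes formed one group of intestine genes. HSPA5 encodes BiP, the Hsp70 chaperone of the endoplasmic reticulum and a standard readout of the unfolded protein response. Its levels were 314, 149 and 419.9 CPM in gill GFP and 525, 522 and 136 CPM in gill DsRedx libraries, against 1817, 1822 and 2612 CPM in intestine GFP and 1402, 1643 and 4117 CPM in intestine DsRedx libraries. Every intestine library lay above every gill library, and HSPA5 was 6.49-fold lower in gill (log2 difference -2.71, SE 0.44). The tissue effects in GFP and DsRedx cells differed by -0.23, SE 0.82, adjusted p = 0.991 for HSPA5. At 1834 TPM in GFP and 1656 TPM in DsRedx cells, it was also the highest intestine gene in DsRedx cells per unit of length. TMED2, a cargo receptor between endoplasmic reticulum and Golgi, was the smallest difference of the intestine genes. It spanned 31.0 to 145 CPM over the gill libraries, against 158 to 295 CPM over the intestine libraries, with means 2.38-fold apart.

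Other traffic and chaperone genes followed the same order. arf4b, an ARF GTPase of Golgi transport, had 0 CPM in all 6 gill libraries, against 33.6, 54.7 and 254 CPM in intestine GFP and 32.8, 34.2 and 19.4 CPM in intestine DsRedx libraries. Every intestine library held at least 19.4 CPM, and arf4b was at least 980.1-fold lower in gill. AHSA1 (ENSDARG00000100317), an activator of the Hsp90 ATPase, spanned 0.696 to 50.8 CPM over the gill libraries, against 51.5 to 172 CPM over the intestine libraries. HPS3, a subunit of the BLOC-2 complex of lysosome-related organelles, spanned 0.138 to 11.09 CPM over the gill libraries, against 12.1 to 123 CPM over the intestine libraries. The lysosomal protease gene ctsbb, of the cathepsin B family, had 0, 0.141 and 0 CPM in gill GFP and 0.956, 3.3 and 0.138 CPM in gill DsRedx libraries, against 102, 233 and 92.5 CPM in intestine GFP and 101, 20.3 and 335 CPM in intestine DsRedx libraries. Every intestine library lay above every gill library, and the means were 195-fold apart. GGH, the lysosomal enzyme that removes glutamates from folate, was present in all libraries, with 48.6, 87.7 and 33.0 CPM in gill GFP and 29.2, 2.96 and 41.3 CPM in gill DsRedx libraries, against 105, 139 and 215 CPM in intestine GFP and 163, 117 and 127 CPM in intestine DsRedx libraries.

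Among genes of absorption, RBP2, FABP2 and stra6l were uneven between libraries. RBP2 (ENSDARG00000070038), the cellular retinol-binding protein of enterocytes, had 0 CPM in all 6 gill libraries, against 2.26, 152 and 21.8 CPM in intestine GFP and 134, 447 and 12.8 CPM in intestine DsRedx libraries. Its DsRedx mean exceeded its GFP mean, and single libraries ranged widely in both colors. FABP2, the intestinal fatty acid binding protein, had 0 CPM in all 6 gill libraries, against 19.1, 730.3 and 53.7 CPM in intestine GFP and 30.5, 42.1 and 4.2 CPM in intestine DsRedx libraries. Its intestine GFP 2 library alone held 83.0% of the intestine sum. stra6l, a retinol receptor gene related to STRA6, had 0 CPM in all 6 gill libraries, against 54.9, 149.9 and 83.8 CPM in intestine GFP and 3.58, 128 and 1.36 CPM in intestine DsRedx libraries. Enterocyte markers (10 genes) summed to at most 0.311 CPM in any gill library, against 3375 to 4170.0 CPM in intestine GFP and 41.4 to 85.7 CPM in intestine DsRedx libraries. FABP2 is itself 1 of these markers, and the part of the other marker genes in the levels of RBP2, FABP2 and stra6l was not tested. MFSD2A (ENSDARG00000035909), a transporter of lysophosphatidylcholine, was even within each intestine color and spanned 0 to 23.0 CPM over the gill libraries, against 48.3 to 112 CPM over the intestine libraries.

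The 4 intestine genes of highest level, si:ch211-220m17.5, lgals2b, TM4SF4 and chia.5, were far higher in GFP than in DsRedx cells, and 2 less abundant ones, cldn15lb and cyp3c3, shared this. TM4SF4, a tetraspan membrane protein of the intestine and liver, had 0 CPM in all 6 gill libraries, against 9438, 7995 and 7531 CPM in intestine GFP and 98.4, 89.9 and 87.8 CPM in intestine DsRedx libraries. cldn15lb, a claudin of the claudin-15 type that forms cation-selective tight junctions in gut, had 0 CPM in all 6 gill libraries, against 2872, 2933 and 1959 CPM in intestine GFP and 26.7, 29.5 and 25.7 CPM in intestine DsRedx libraries. The chitinase gene chia.5 had 63.8, 9.03 and 10.7 CPM in gill GFP and 0.765, 12.5 and 0.276 CPM in gill DsRedx libraries, against 7378, 6617 and 8260.0 CPM in intestine GFP and 77.2, 81.8 and 79.3 CPM in intestine DsRedx libraries. In all 3 genes the DsRedx values were even and close to 1% of the GFP mean, at 1.11% in TM4SF4, 1.05% in cldn15lb and 1.07% in chia.5. These genes were among those that gave the shared low level of intestine, so the match follows in part from that choice. The galectin gene lgals2b had 20.3 CPM in gill GFP 2 and at most 0.191 CPM in the other gill libraries, against 12380.0, 12600.0 and 12030.0 CPM in intestine GFP and 141, 153 and 131 CPM in intestine DsRedx libraries, a ratio of 1.15%. The unannotated gene si:ch211-220m17.5 had 0 CPM in all 6 gill libraries, against 15900.0, 14690.0 and 14840.0 CPM in intestine GFP and 166, 169.7 and 152 CPM in intestine DsRedx libraries, a ratio of 1.07%. cyp3c3, a cytochrome P450 gene, had at most 1.49 CPM in gill, against 820.5, 794 and 82.3 CPM in intestine GFP and 10.8, 57.9 and 6.42 CPM in intestine DsRedx libraries, a ratio of 4.42%. With 1% of the other color taken off each library, TM4SF4, cldn15lb, chia.5, lgals2b, si:ch211-220m17.5 and cyp3c3 no longer met the rule.

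**Figure D3:**
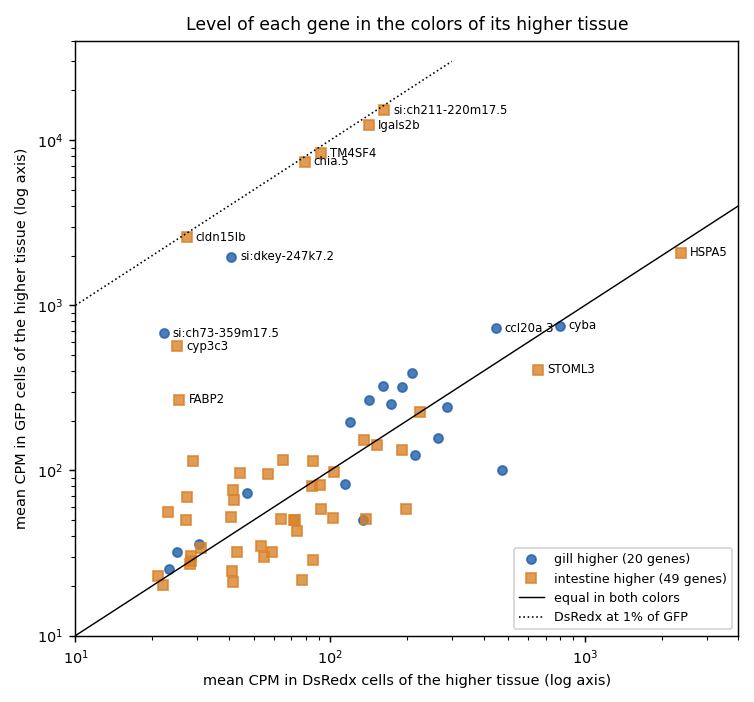
Mean level in GFP cells against mean level in DsRedx cells of the higher tissue for 69 of the 71 genes, both in CPM on log axes, with gill genes as circles and intestine genes as squares. The solid line marks equal levels and the dotted line a DsRedx level of 1% of the GFP level. Most genes scatter about the solid line, and si:ch211-220m17.5, lgals2b, TM4SF4, chia.5 and cldn15lb lie on or beside the dotted line.

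Energy metabolism genes formed a further group. cox4i1l, a copy of subunit 4 of cytochrome c oxidase, had 0 CPM in all 6 gill libraries, against 55.5, 128 and 57.0 CPM in intestine GFP and 110.3, 114 and 29.8 CPM in intestine DsRedx libraries. It was at least 1131-fold lower in gill, with no intestine library under 29 CPM. cox8b, subunit 8 of the same enzyme, had 0.106, 8.18 and 26.9 CPM in gill GFP and 0.191, 0 and 0 CPM in gill DsRedx libraries, against 73.8, 114 and 99.0 CPM in intestine GFP and 88.6, 52.6 and 29.9 CPM in intestine DsRedx libraries. NDUFA9, of respiratory complex I, spanned 0 to 21.2 CPM over the gill libraries, against 28.7 to 64.9 CPM over the intestine libraries. HADHB, of mitochondrial fatty acid oxidation, spanned 0.138 to 26.2 CPM over the gill libraries, against 46.2 to 145 CPM over the intestine libraries, and DECR2, of peroxisomal fatty acid oxidation, had 0 CPM in all 6 gill libraries, against 18.6, 33.5 and 16.9 CPM in intestine GFP and 0.551, 0.266 and 62.3 CPM in intestine DsRedx libraries. The DsRedx level of DECR2 came from 1 library. GCAT, an enzyme of threonine breakdown in mitochondria, had 0, 0.141 and 0.155 CPM in gill GFP and 0.191, 0 and 0 CPM in gill DsRedx libraries, against 23.7, 23.6 and 26.9 CPM in intestine GFP and 0.689, 0.531 and 122 CPM in intestine DsRedx libraries, again with 1 DsRedx library carrying the level. IARS2, the mitochondrial isoleucine tRNA ligase, spanned 0 to 0.828 CPM over the gill libraries, against 1.38 to 50.7 CPM over the intestine libraries. Of 60 tested nuclear genes of oxidative phosphorylation, 0 were called higher in gill and 1, cox4i1l, higher in intestine. cox8b, which was called for the mean tissue difference, is not on that list. None of 13 mitochondrial genome transcripts was called by edgeR.

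Galactose enzymes were both members. galk1, galactokinase, had 0 CPM in all 3 gill GFP and 0, 0.174 and 0 CPM in gill DsRedx libraries, against 27.8, 7.27 and 30.1 CPM in intestine GFP and 48.6, 46.6 and 138 CPM in intestine DsRedx libraries, and 1 count in all gill libraries made it 1846-fold lower in gill (95% counting interval 331 to 72950.0). GALM, galactose mutarotase, had 0 CPM in all 3 gill GFP and 0.382, 8.0 and 6.07 CPM in gill DsRedx libraries, against 10.3, 31.6 and 21.1 CPM in intestine GFP and 72.5, 24.7 and 27.7 CPM in intestine DsRedx libraries. Both had no gill GFP count, and GALM was called for color with DsRedx above GFP (adjusted p = 0.0383).

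Actin and membrane regulators included STOML3 and CTTN. STOML3, a stomatin-family protein of cholesterol-rich membranes, had 56.1, 189 and 85.5 CPM in gill GFP and 10.7, 2.26 and 33.95 CPM in gill DsRedx libraries, against 338, 437 and 444 CPM in intestine GFP and 667, 750.3 and 539.8 CPM in intestine DsRedx libraries. It was 8.42-fold lower in gill, with the lowest levels in gill DsRedx cells. The tissue effects in GFP and DsRedx cells differed by 3.49, SE 1.16, adjusted p = 0.188 for STOML3. CTTN, cortactin of the branched actin network, had 0 CPM in all 3 gill GFP and 0, 0.174 and 0 CPM in gill DsRedx libraries, against 87.9, 126 and 79.2 CPM in intestine GFP and 226, 7.43 and 75.6 CPM in intestine DsRedx libraries. On its single gill count CTTN was 4028-fold lower in gill (95% counting interval 723 to 159100.0). The GTPase-activating gene sh3bp1 spanned 0.522 to 19.6 CPM over the gill libraries, against 31.6 to 106 CPM over the intestine libraries. LRRFIP2 spanned 0.276 to 24.97 CPM over the gill libraries, against 32.2 to 106 CPM over the intestine libraries, and the copine gene CPNE8, of a family of calcium-dependent phospholipid-binding proteins, spanned 0.141 to 13.2 CPM over the gill libraries, against 48.0 to 138 CPM over the intestine libraries. SEPTIN9 (ENSDARG00000103900), a septin cytoskeleton gene, spanned 0 to 14.8 CPM over the gill libraries, against 17.4 to 55.7 CPM over the intestine libraries, and SPART (ENSDARG00000103457), spartin of lipid droplets and endosomes, spanned 0 to 22.4 CPM over the gill libraries, against 22.6 to 93.3 CPM over the intestine libraries.

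Kinases and other signaling genes made up another group. AKT2, a kinase of insulin signaling, had 0 CPM in all 3 gill GFP and 0, 0 and 0.414 CPM in gill DsRedx libraries, against 67.1, 66.0 and 96.3 CPM in intestine GFP and 62.4, 1.46 and 60.4 CPM in intestine DsRedx libraries, and on 3 gill counts was 875-fold lower in gill (95% counting interval 299 to 4244). PRKCD (ENSDARG00000009208), protein kinase C delta, had 0 CPM in all 6 gill libraries, against 28.2, 74.2 and 66.2 CPM in intestine GFP and 0.965, 22.2 and 46.2 CPM in intestine DsRedx libraries. stk17al, a death-associated protein kinase family gene, had 0, 0.141 and 0 CPM in gill GFP and 5.93, 0.174 and 13.8 CPM in gill DsRedx libraries, against 18.1, 28.4 and 106 CPM in intestine GFP and 101, 57.0 and 256 CPM in intestine DsRedx libraries. CAB39L, a scaffold of the LKB1 kinase, had at most 3.27 CPM in gill, against 17.2, 103 and 30.5 CPM in intestine GFP and 122, 9.69 and 86.4 CPM in intestine DsRedx libraries. mcf2l2, a guanine nucleotide exchange factor gene, had 0 CPM in all 6 gill libraries, against 49.5, 6.89 and 96.1 CPM in intestine GFP and 119.9, 66.5 and 5.19 CPM in intestine DsRedx libraries. gna12a, a G protein alpha subunit gene, spanned 0 to 14.6 CPM over the gill libraries, against 18.8 to 102 CPM over the intestine libraries.

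The remaining intestine genes have varied functions. ANKRD37, a target of hypoxia-inducible factor in mammals, had 0, 3.38 and 0 CPM in gill GFP and 0.382, 0 and 0 CPM in gill DsRedx libraries, against 17.8, 16.0 and 50.8 CPM in intestine GFP and 23.7, 25.4 and 36.3 CPM in intestine DsRedx libraries. Every intestine library exceeded every gill library for ANKRD37. The apoptosis regulator PAWR had 0, 0 and 0.155 CPM in gill GFP and 0, 0.174 and 0 CPM in gill DsRedx libraries, against 78.4, 25.1 and 46.8 CPM in intestine GFP and 37.9, 43.1 and 0.494 CPM in intestine DsRedx libraries, and on 2 gill counts was 847-fold lower in gill (95% counting interval 234 to 6999). KLHL11, a ubiquitin ligase adaptor, spanned 0 to 16.6 CPM over the gill libraries, against 23.9 to 74.8 CPM over the intestine libraries. NAA15 (ENSDARG00000003213), of N-terminal acetylation, spanned 0.138 to 14.0 CPM over the gill libraries, against 16.1 to 119 CPM over the intestine libraries. POLR2C, of RNA polymerase II, spanned 0.311 to 11.8 CPM over the gill libraries, against 13.1 to 56.6 CPM over the intestine libraries, and cd2bp2, of the spliceosome, spanned 0 to 9.03 CPM over the gill libraries, against 14.8 to 28.7 CPM over the intestine libraries. Of the other clone-named genes, zgc:174356 spanned 0 to 0.282 CPM over the gill libraries, against 19.4 to 139.8 CPM over the intestine libraries, and zgc:153018 0 to 7.22 CPM over the gill libraries, against 20.5 to 90.3 CPM over the intestine libraries. si:ch211-194k22.8 spanned 0 to 0.966 CPM over the gill libraries, against 1.1 to 87.8 CPM over the intestine libraries, and zgc:136870 3.06 to 74.1 CPM over the gill libraries, against 82.4 to 332 CPM over the intestine libraries.

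The difference between the colors was limited by the rule. Both colors had to reach the minimum level, and a large color difference can make the libraries of the tissues overlap. The color shares and ratios of the members below therefore follow in part from the choice. Over both tissues 7 of the 71 genes (9.86%) were called for the mean difference between GFP and DsRedx cells, against 17.9% of all tested genes. GFP was higher in 5 and DsRedx in 2, against 10.5% and 7.3% of all genes, and the minimum level leaves out genes found in 1 color only. A gene at 0 in a tissue cannot be called for color in this fit, because its color difference in that tissue is free, and 13 of the 71 genes were of this kind, against 456 of all 10666. TM4SF4, cldn15lb and si:ch211-220m17.5 were among the 13. With counts in both tissues, 7 of 58 genes (12.1%) were called, against 18.6% of all such genes. Among gill genes GFP was higher for si:dkey-247k7.2 (log2 difference 4.85, SE 1.01, adjusted p = 0.00293). Among intestine genes GFP was higher for lgals2b (log2 difference 5.83, SE 0.98, adjusted p = 0.00041) and for chia.5 (log2 difference 4.58, SE 0.71, adjusted p = 0.00017). The oxidase gene cox8b and the P450 gene cyp3c3, each without a count in at least 1 gill DsRedx library, were called with adjusted p = 0.0331 and 0.0158. DsRedx was higher for stk17al (log2 difference -4.12, SE 1.2, adjusted p = 0.0248) and for GALM. GFP had the higher mean in 13 of 21 gill genes and 23 of 50 intestine genes. The lower color stood at a median of 59.3% of the higher one in gill genes and 61.3% in intestine genes, and at 50% or more in 15 of 21 and 35 of 50.

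Whether the tissue difference itself depended on color was tested as an interaction. The rule leaves out genes whose tissue differences point in opposite directions in the colors, so the interaction shares of the members are shaped by the choice. By edgeR 0 of 71 genes passed, against 16 of all 10666 (0.15%), and 12 of 71 (16.9%) had an unadjusted p under 0.05, against 14.1% of all genes. The 13 genes at 0 in a tissue cannot be called here either, and of the other 58 genes 12 (20.7%) had an unadjusted p under 0.05, against 14.7% of all genes with counts in both tissues. DESeq2 called 9 of the 71, against 834 of all 10666 genes, and limma on log2(TPM + 1) called 4, against 316 of all. The lowest adjusted p was 0.0807 among gill genes, for si:ch73-359m17.5, and 0.179 among intestine genes, for chia.5. A missed threshold does not show equal effects: the standard error of the interaction was 0.82 log2 units for HSPA5 and 2.02 for ctsbb. Within GFP cells alone 7 of 21 gill genes and 20 of 50 intestine genes passed, where 2.03% of all genes did. Within DsRedx cells alone 4 of 21 and 14 of 50 passed, where 0.759% of all genes did. The rule already separates the tissues within each color, so these shares follow from the choice and are a description. Several DsRedx passes lay near the shared low level. In a clone-named intestine gene, TM4SF4, cldn15lb and lgals2b edgeR's adjusted p was 1.05e-08, 1.18e-07, 3.24e-05 and 0.00647. Their DsRedx mean was 1.073, 1.106, 1.055 and 1.149% of the GFP mean. A clone-named gill gene (2.08%) and cyp3c3 (4.42%) passed too. None of these genes met the rule with 1% of the other color taken off. STOML3 and cox4i1l also passed, with GFP at 62.3 and 94.4% of DsRedx.

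Fewer of the genes met the rule throughout, both over other scalings and with the shared low level taken off. A gene was followed through 4 other scalings and through 3 removals, namely 1% and 2% of the other color's mean and 0.5% of the other 5 libraries of the tissue. Under all 4 scalings 11 gill and 28 intestine genes met the rule again, and under all 3 removals 11 and 29. Under all scalings and all removals together, 6 gill genes and 19 intestine genes did so. The 6 gill genes were ccl20a.3, dennd2db, ly96, RABAC1, mrtfab and thrap3b. The 19 intestine genes were HSPA5, cox4i1l, ctsbb, arf4b, CTTN, STOML3, GGH, HADHB, NDUFA9, MFSD2A, ANKRD37, CAB39L, CPNE8, LRRFIP2, KLHL11, gna12a, sh3bp1, stk17al and zgc:174356. In the fit as reported, mrtfab, GGH, HADHB, NDUFA9, MFSD2A, KLHL11, gna12a and sh3bp1 were not called for the mean tissue difference. Of the 25 genes, 7 were also called under all 3 removals, namely ccl20a.3, dennd2db, HSPA5, cox4i1l, ctsbb, arf4b and CTTN. This group was formed after the values were seen and carries no test. Over all genes, the 968 calls became 272, 36 and 31 under the removals, while the common biological coefficient of variation went up with each one, at 1.59, 1.70 and 1.81 against 1.42.

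**Figure D4:**
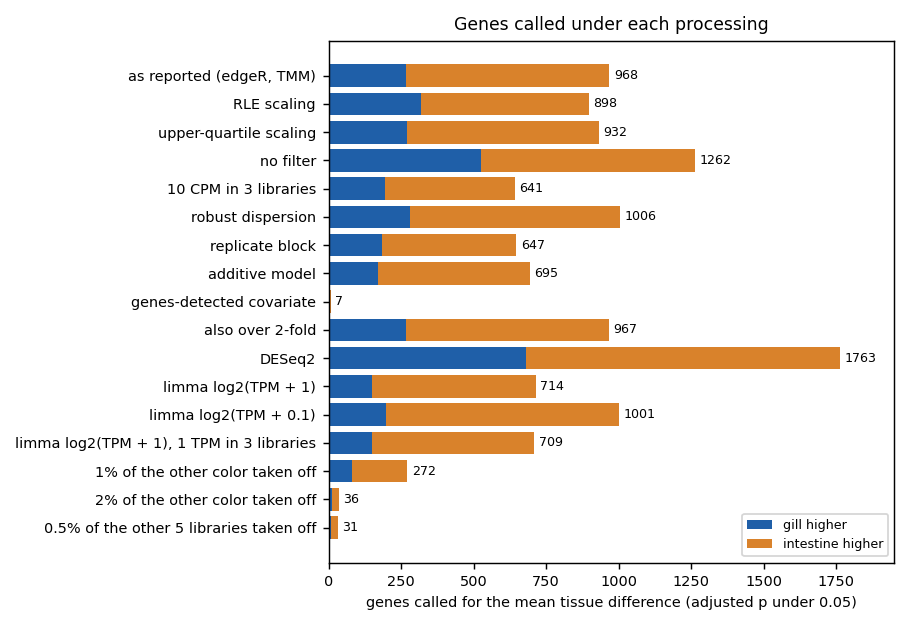
Number of genes called for the mean difference between gill and intestine under each processing, split into gill higher and intestine higher, over all tested genes. The bar for the processing as reported reaches 968 genes, the DESeq2 bar 1763, and the bars with the shared low level taken off 272, 36 and 31. The bar with a covariate for genes detected reaches 7.

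Pathway lists place the members among related genes. Of 20 tested enterocyte and goblet cell markers, 0 were called higher in gill and 14 higher in intestine, with a median log2 difference of -8.49 (-7.50 with genes at 0 in a tissue at their bound), against -0.25 over all genes. Members among these 14 were TM4SF4, RBP2, FABP2 and chia.5. Others, such as VIL1, villin of the brush border, failed the minimum level: VIL1 had 0 ± 0 CPM in gill GFP and 0.092 ± 0.159 CPM in gill DsRedx, against 912 ± 227 CPM in intestine GFP and 9.36 ± 0.521 CPM in intestine DsRedx libraries (SD, n = 3 each). Of 20 Hox and regional transcription factor genes, 2 were called higher in gill and 14 in intestine, and none was a member. The pharyngeal factor PAX9 had 82.8 CPM in gill GFP and 0.591 CPM in gill DsRedx cells, and no counts in intestine. The gut endoderm factor GATA6 had no counts in gill, against 177 CPM in intestine GFP and 1.65 CPM in intestine DsRedx cells. In both factors the DsRedx level was near 1% of the GFP level of the same tissue. A call for the mean over both colors therefore does not show a like level in both. Over all called genes, the lower color stood at under 5% of the higher one in 100 of 268 gill calls and 275 of 700 intestine calls.

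In stress and metabolic lists, as over all tested genes, more genes were called higher in intestine than in gill. Of 54 immediate early and heat shock genes, 2 were called higher in gill and 8 higher in intestine, HSPA5 among them (median log2 difference -0.51). The cytosolic heat shock gene hsp70.3 had 51.6 ± 45.2 CPM in gill GFP and 246 ± 233 CPM in gill DsRedx, against 1000.0 ± 1168 CPM in intestine GFP and 3059 ± 3807 CPM in intestine DsRedx libraries (log2 difference -3.96, SE 1.08, adjusted p = 0.0307). Its copies hsp70.1 and hsp70l were called in the same direction, and reads of these near-identical copies may be split by the counting. Of 39 hypoxia and glycolysis genes, 1 was called higher in gill and 9 higher in intestine, with ANKRD37 as the only member. Of 34 lipid and lipoprotein genes, 0 and 7 were called, led in level by the lipid droplet gene PLIN2, which averaged 22.1 ± 10.8 CPM in gill GFP and 86.6 ± 56.6 CPM in gill DsRedx, against 163 ± 28.5 CPM in intestine GFP and 829 ± 466 CPM in intestine DsRedx libraries (log2 difference -3.07, SE 0.55, adjusted p = 0.00169). Of 40 xenobiotic and oxidative stress genes 1 and 5 were called, and of 14 retinoid and vitamin D genes 1 and 4. No gene was called among 73 cytosolic ribosomal proteins, whose median log2 difference was 0.001.

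The antigen presentation and chemokine lists held more genes called higher in gill than in intestine for the mean over both colors. The log2 differences estimated within each color varied in size and are given below as a description. Of 16 MHC class II presentation genes, which did not include mhc2bl and mhc2dbb, 4 were called higher in gill and 1 in intestine. All 4 gill calls had the smaller log2 difference in DsRedx cells. The values in GFP and DsRedx cells were 2.447 and 0.929 for cd74a and 1.727 and 0.898 for mhc2dab. They were 1.599 and 0.268 for mhc2daa and 1.598 and 0.504 for cd74b. The invariant chain gene cd74a had 7485, 10340.0 and 14950.0 CPM in gill GFP and 26520.0, 28250.0 and 32340.0 CPM in gill DsRedx libraries, against 2315, 2159 and 1536 CPM in intestine GFP and 16920.0, 16590.0 and 12240.0 CPM in intestine DsRedx libraries (log2 difference 1.69, SE 0.21, adjusted p = 3.62e-05). Within each color its gill libraries lay above its intestine libraries, but the gill GFP and intestine DsRedx libraries overlapped, so cd74a did not meet the rule. Of 27 MHC class I genes, 3 were called higher in gill and 0 in intestine, and the light chain gene b2m averaged 2804 ± 1561 CPM in gill GFP and 3918 ± 1794 CPM in gill DsRedx, against 1108 ± 79.5 CPM in intestine GFP and 1885 ± 498 CPM in intestine DsRedx libraries (log2 difference 1.198, SE 0.33, adjusted p = 0.0333). Of 27 cytokine and chemokine genes, 5 were called higher in gill and 2 in intestine. Among the 5, CXCR4 (ENSDARG00000041959) had log2 differences of opposite sign, 3.744 in GFP and -0.467 in DsRedx cells. CCR9 had 1.737 in GFP and 0.478 in DsRedx cells. The estimated difference was larger in DsRedx cells for ccl20a.3, tnfa and il22ra2. For il22ra2 it was 5.145 there and rested on 1 gill DsRedx library (12.43, 891.2 and 7.59 CPM). For ccl20a.3 the tissue effects in GFP and DsRedx cells differed by -0.86, SE 1.41, adjusted p = 0.896 by edgeR. The chemokine receptor gene CCR9 (ENSDARG00000055186), whose mammalian member directs lymphocytes to gut, had 4568 ± 1763 CPM in gill GFP and 4429 ± 1719 CPM in gill DsRedx, against 1370.0 ± 574 CPM in intestine GFP and 3179 ± 309 CPM in intestine DsRedx libraries (log2 difference 1.11, SE 0.31, adjusted p = 0.0338). The chemokine gene cxcl19 was called in the other direction and averaged 4.37 ± 1.48 CPM in gill GFP and 1097 ± 337 CPM in gill DsRedx, against 29.9 ± 13.3 CPM in intestine GFP and 3185 ± 1859 CPM in intestine DsRedx libraries (log2 difference -2.15, SE 0.42, adjusted p = 0.00361). Of 29 microbe sensing genes 2 and 2 were called, ly96 among the first, and of 25 leukocyte identity genes 3 and 2. The remaining lists with called genes gave 5 higher in gill and 3 in intestine of 26 epithelial genes, 4 and 3 of 25 cell cycle genes, 3 and 1 of 50 lysosome genes, 1 and 5 of 23 interferon-stimulated genes, 2 and 2 of 14 complement and engulfment genes, 2 and 1 of 24 extracellular matrix and protease genes and 2 and 1 of 15 antimicrobial effectors and lectins. They gave 2 and 0 of 8 neutrophil and granulocyte markers, 1 and 0 of 4 T cell and NK cell markers, 1 and 0 of 12 ionocyte and gill epithelium markers, 0 and 1 of 17 metal handling genes and 0 and 1 of 12 glucocorticoid-responsive genes.

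The level threshold cut through a continuum. Just inside it on the gill side were si:ch73-359m17.5 and s100a11, with 22.2 and 23.2 CPM in the lower color. Just outside were ENSDARG00000032077 and BRSK2 (ENSDARG00000061421), with 17.7 and 14.4 CPM. On the intestine side cd2bp2 and GALM were inside at 20.2 and 21.0 CPM, and tuft1a and BBOX1 outside at 19.9 and 19.6 CPM. Of the 70 called gill genes whose libraries did not overlap 56 were below 20 CPM in a color, and of 306 such intestine genes 271 were. By the RefSeq order of genes (assembly GRCz12tu), 58 members were matched, and 2 pairs lay within 10 genes of each other. These were tefa and sh3bp1, 5 places apart and opposite in direction, and TM4SF4 and HPS3, 4 places apart and both higher in intestine.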

How the data were processed

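Levels of 12 SMART-seq2 libraries were analysed. The authors deposited raw whole-number counts per Ensembl gene and, in a second table, TPM values. Both hold the same measurement: over 4982 genes with counts in all libraries, their ratio split into 1 factor per gene and 1 per library with deviations up to 4.4e-08 (natural log). STAR, featureCounts and the build danRer11 are named in the submitters' processing notes. The sources used here state neither annotation release nor strandedness nor how paralogs were counted. Genes overlapping on opposite strands and near-identical copies are therefore uncertain. Depth is the sum of a library's counts, 5895669 to 12365233.

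Genes passing filterByExpr were fitted with edgeR 4.0.16 in R 4.3.3 (TMM scaling, quasi-likelihood F test, 1 mean per group, 8 residual degrees of freedom), and p-values were adjusted by Benjamini-Hochberg over all 10666 genes of a contrast. The contrasts were the mean tissue difference, the tissue difference in each color, the tissue-by-color interaction and the mean color difference. A standard error is the log2 difference divided by the root of F. CPM uses TMM-adjusted library sizes. Where a tissue had 0 counts, the fold is a bound from 3 counts over its 6 libraries. With 1 to 3 counts, a ratio with an exact 95% Poisson interval is given. The fits were also run on simulated data with tissue shifts equal in both colors. Those data held no color difference and no shared low level, so that run does not bear on either.

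The members and the 32 gene lists (1226 of 1308 symbols matched) were chosen with earlier results of these data known. Detailed genes were, among members with no clone name whose lower color was at least 10% of the higher one, the 12 per direction with the largest smaller within-color difference and the 4 of highest CPM, and among all members up to 3 members per list, the 3 lowest color ratios and the genes at the threshold. The other members are given for completeness and were chosen after their values were seen; 2 of the 71 are counted but not reported singly here. Alternatives covered scaling, filters, dispersion, models, DESeq2 1.42.0, limma 3.58.1 on log2 TPM, level thresholds, removal of the shared low level, and leaving out each library. Libraries with the same number did not deviate together.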

Additional observations from a re-analysis of the deposited data

How the results depend on the processing

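The 968 calls for the mean tissue difference became 898 under RLE scaling, 932 under upper-quartile scaling, 1262 without a filter, 1006 with a robust dispersion, 695 with an additive model, 967 with a 2-fold minimum and 709 to 1001 by limma. Without a filter the split was 527 gill and 735 intestine genes, 41.8% gill against 27.7% as reported, and under RLE scaling it was 319 and 579. RLE scaling moved the median log2 difference of all genes from -0.25 to 0.01. The count was 641 with a filter of 10 CPM in 3 libraries, 1763 by DESeq2, 7 with a covariate for genes detected per library, 272 and 36 with 1% and 2% of the other color taken off, and 31 with 0.5% of the other 5 libraries taken off, an alternative chosen after seeing the data. The cause was not tested. Without 1 library it ran from 342 to 706.

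The 16 interaction calls became 9 under RLE scaling, 107 without a filter, 2 with the covariate, 834 by DESeq2, and 316, 269 and 0 by limma on log2(TPM + 1), the same after a filter of 1 TPM in 3 libraries, and log2(TPM + 0.1). They became 43 and 31 with 1% and 2% taken off, and 1 to 17 without 1 library. The 1904 color calls became 335 with the covariate, 1186 with 0.5% taken off and 902 to 1380 without 1 library.

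Libraries with the same replicate number did not pair: the correlation of their deviations from group means ran from -0.034 to 0.042, over 0.1 in 0 of 18 pairs. With a replicate block 647 tissue, 23 interaction and 1157 color calls were made.

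The 21 gill genes became 36 under RLE scaling, 12 with 2% and 11 with 0.5% taken off, and 25 to 41 without 1 library. With raw library totals 16 gill and 49 intestine genes met the rule, 12 and 42 of them shared with the reported set. The 50 intestine genes became 94 and 23 with a minimum of 10 and 50 CPM, 30 with 2% and 29 with 0.5% taken off, 33 with every library over 1% of the tissue sum (also chosen after seeing the data), and 51 to 79 without 1 library, where fewer libraries must separate. Of 43 named genes 36 were called, 29 of them in all 12 fits without 1 library. Of 1202 alternative values of named genes 1038 kept direction and side, 143 lost the call, 16 gained it and 5 turned round. The 5 were log2 differences under the covariate, -0.87 for s100a11, -0.15 for PACSIN2, -0.45 for RABAC1, 0.025 for NDUFA9 and 0.34 for cd2bp2.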
